A study of Mus musculus with 6 samples.

Results

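The genes of the CHD, BAF and ARID chromatin remodelers were followed in mouse neural stem cells (NSCs) that carry 1 mutated copy of Setd5. Members were chosen by gene name alone: Chd followed by a single digit, with or without a final l, Arid followed by a digit, or any name that begins with Smarc. The rule took 35 of the 53110 genes listed, namely 10 Chd, 10 Arid and 15 Smarc genes, of which 33 are protein coding and 2, Smarca5-ps and Smarce1-ps1, are processed pseudogenes.

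RNA-seq was run on NSCs from the cortex of mouse embryos, grown attached to Matrigel in medium with EGF and bFGF in an incubator at 21% O2. All cells shared this culture, and the groups were WT NSCs and Setd5+/- NSCs, the latter made with CRISPR-Cas9, with 3 samples listed for each. The column headers of the mutant samples name a single clone, so the mutant group stands for 1 clone of one editing experiment. SETD5 is a SET-domain protein linked to neurodevelopmental disorders, and the comparison asks what its reduced dose does to transcription in high oxygen.

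Chromatin remodelers use ATP to slide, evict or exchange nucleosomes. The BAF (SWI/SNF) complex is assembled from Smarc and Arid subunits around the ATPase SMARCA4 or SMARCA2, and in neural development several of its subunits are swapped for paralogues as progenitors become neurons. CHD proteins are remodeling ATPases with chromodomains, among them the motor of the repressive NuRD complex (CHD3, CHD4 or CHD5), while ISWI complexes use SMARCA5 or SMARCA1. ARID proteins share a DNA-binding domain, and only some of them belong to BAF. Mutations in ARID1B, SMARCA4, CHD2, CHD7 and CHD8 cause neurodevelopmental disorders in people.

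Values are normalized counts, the reads of a gene scaled by the authors to a common library size. The summed reads of the samples ran from 9995980 to 10004948 in WT and from 7143309 to 7146147 in the mutant. The 3 samples of a genotype differed from one another by no more than sampling noise, with a chi-square per degree of freedom of 0.958 to 0.981 over 6 pairs against 31.7 to 31.9 over the 9 pairs between genotypes. Their column headers also share 1 index and 1 lane per genotype, so they were treated as 3 parts of 1 library and n is 1 library per genotype. There is therefore no replicate check on any difference. Limma calls and the 95% counting intervals given with each log2 fold change compare the reads of 2 libraries, not genotypes. Genotype, clone, index and lane cannot be told apart. Overlap of the parts or groups, given below for single genes, likewise describes the reads of 2 libraries and is no replicate check. Its share over all tested genes was not counted. Setd5 itself (ENSMUSG00000034269, chr6:113077365-113153435) had 2498, 2749 and 2780.0 normalized counts in the WT parts and 2151, 1989.9 and 2055 in the mutant parts, a log2 fold change of -0.37 (-0.44 to -0.30). The NSC markers Sox2 and Nes were present in every part. Summed neural stem cell markers ranged from 78441 to 78560 in WT and from 62795 to 63695 in the mutant, but of 12 markers limma called 7 lower and 4 higher. Fabp7 alone went from a mean of 36015 to 11489.8, while Vim (9095 to 13822), Notch1 (2576 to 7859), Hes5 and Pax6 rose. For oligodendrocyte lineage markers the ranges were 11629 to 11819 and 6848 to 7192, with 3 of 5 tested markers lower and 2 higher and Sox10 falling from a mean of 298 to 1.59. For astrocyte markers they were 788 to 808 and 1237 to 1397, where Gfap, Aqp4 and S100b rose and Aldh1l1 fell from 380.4 to 147. The part of this shift in marker genes in the values below was not tested, and in bulk RNA fewer cells of a type and less RNA per cell cannot be told apart.

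The largest differences were spread over all 3 name groups. Smarca1 fell 38.2-fold, Arid3b and Chd3 fell, and Arid5a, Arid3c, Chd5, Chd9, Chd7 and Chd2 rose by at least 1.5-fold. In the core of BAF and NuRD, Chd4, Arid1a, Arid2, Smarcc1 and Smarcc2 gave no limma call. Of the other BAF subunits among the members, Smarca4, Smarca2, Smarcb1, Smarcd1, Smarcd3 and Smarce1 were called lower, and Smarcd2 and Arid1b higher. Of the 33 members whose mean reached 10 normalized counts, limma called 12 higher (36.4%) and 11 lower (33.3%) in Setd5+/- NSCs at a Benjamini-Hochberg adjusted p under 0.05, where 30.3% and 30.9% of all 16266 tested genes were called. At 1.5-fold, 6 members were higher (18.2%) and 3 lower (9.09%), against 19.7% and 15.5% of all tested genes. As a share, the members were thus called about as often as any tested gene. Their median log2 fold change was 0.00, beside -0.02 for all tested genes, and its sign turned with the scaling (-0.04 with upper quartile scaling, 0.04 when scaled to genes outside chromosome 1).

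The name groups had different medians. Over all tested genes, limma called 30.3% higher and 30.9% lower. Among the 10 Chd genes 5 were called higher (50%) and 2 lower (20%), with a median of 0.13. Among the 9 tested Arid genes 5 were called higher (55.6%) and 1 lower (11.1%), with a median of 0.16. Of the 14 tested Smarc genes, including the pseudogene Smarce1-ps1, 2 were called higher (14.3%) and 8 lower (57.1%), with a median of -0.24. The signs of these medians held under every scaling, filter and pseudocount tried, but the Chd median was 0.024 with a filter at a mean of 50, and no test of the lists against other genes was made.

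**Figure D1:**
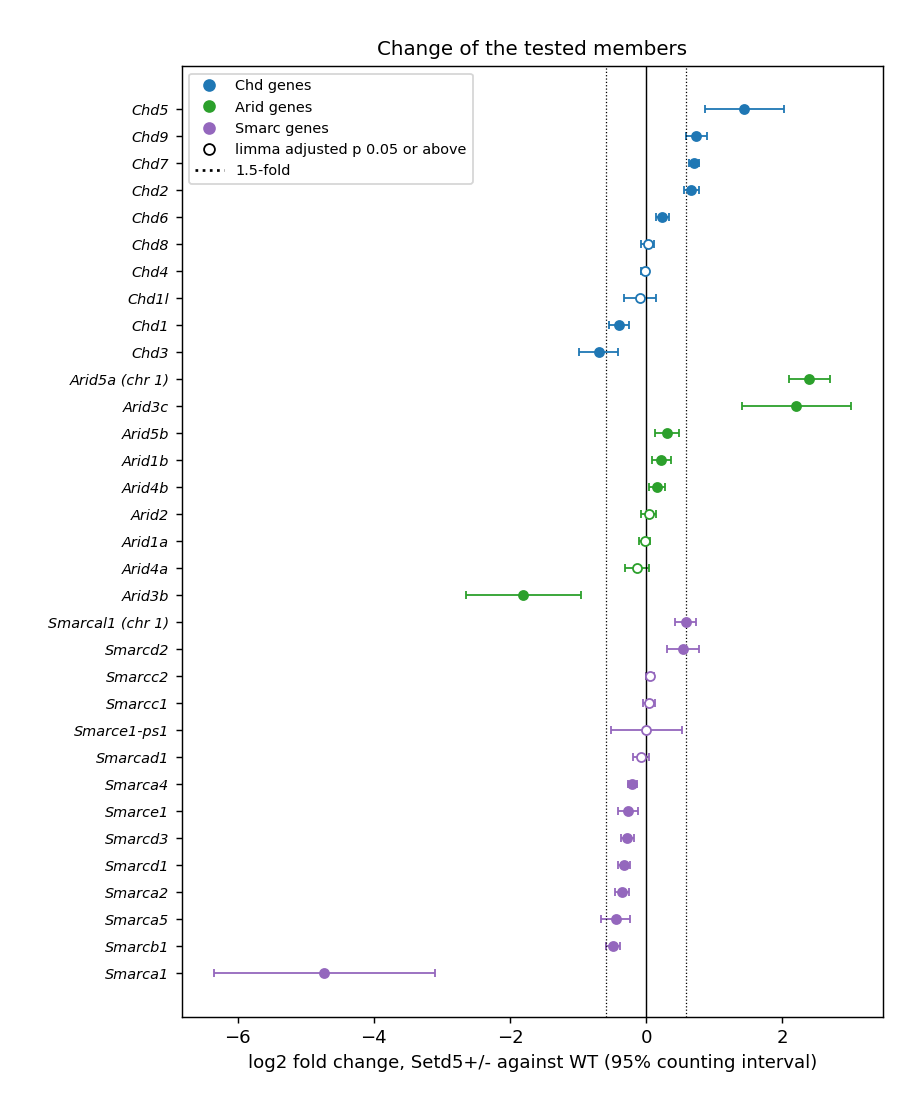
Log2 fold change of the 33 tested members in Setd5+/- against WT NSCs (x axis), with 95% counting intervals as bars and colours for the Chd, Arid and Smarc genes. Filled points passed the limma threshold, dotted lines mark 1.5-fold, and Smarca1 at -4.73, Arid5a at 2.40 and Arid3c at 2.21 lie far from the other members.

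The promoters of 5 members that passed 1.5-fold are shown first, because these genes carry the largest differences and the upstream window of each could be read. Sequences are the 250 bases before the RefSeq start on GRCm38.p6, written 5′ to 3′ on the strand of the gene. Capitals mark matches on either strand. Of 7 motifs searched, those with a match in these 5 windows were the GC box of SP factors, spelled GGGCGG, the box spelled CCAAT that NF-Y reads, and the core of ETS factor sites, spelled CCGGAAG. A match is a run of letters, not a site shown to be bound. The windows are Smarca1 at chrX:47892614-47892863 (minus strand, within an intron of its longest annotated transcript), Arid3b at chr9:57836780-57837029 (minus), Arid3c at chr4:41731143-41731392 (minus), Arid5a at chr1:36307483-36307732 (plus) and Chd5 at chr4:152338401-152338650 (plus).
Smarca1: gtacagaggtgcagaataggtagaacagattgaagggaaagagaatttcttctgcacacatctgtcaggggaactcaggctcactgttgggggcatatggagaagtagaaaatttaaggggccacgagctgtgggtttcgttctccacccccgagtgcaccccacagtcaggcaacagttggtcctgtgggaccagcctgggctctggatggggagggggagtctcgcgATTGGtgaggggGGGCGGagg
Arid3b: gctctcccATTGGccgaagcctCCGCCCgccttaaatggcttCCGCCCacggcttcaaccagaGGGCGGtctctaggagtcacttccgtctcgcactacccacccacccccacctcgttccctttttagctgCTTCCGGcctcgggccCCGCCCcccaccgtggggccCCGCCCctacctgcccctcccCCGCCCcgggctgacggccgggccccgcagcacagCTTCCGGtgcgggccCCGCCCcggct
Arid3c: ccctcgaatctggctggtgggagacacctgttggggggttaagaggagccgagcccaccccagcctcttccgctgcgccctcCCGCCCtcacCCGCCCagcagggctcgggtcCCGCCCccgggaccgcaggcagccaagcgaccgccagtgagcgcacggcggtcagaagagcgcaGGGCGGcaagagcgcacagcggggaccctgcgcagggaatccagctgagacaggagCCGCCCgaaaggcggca
Arid5a: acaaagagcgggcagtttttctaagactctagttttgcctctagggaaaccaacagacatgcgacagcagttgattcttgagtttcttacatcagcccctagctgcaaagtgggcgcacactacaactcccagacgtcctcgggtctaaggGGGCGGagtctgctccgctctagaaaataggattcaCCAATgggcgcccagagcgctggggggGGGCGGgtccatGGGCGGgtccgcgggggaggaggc
Chd5: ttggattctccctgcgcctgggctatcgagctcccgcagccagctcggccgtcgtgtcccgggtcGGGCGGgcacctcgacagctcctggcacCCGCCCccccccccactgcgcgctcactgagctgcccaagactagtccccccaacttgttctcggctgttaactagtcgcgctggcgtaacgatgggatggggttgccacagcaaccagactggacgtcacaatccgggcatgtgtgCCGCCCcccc

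Each of these windows held at least 1 GC box, with 7 matches in Arid3b, 5 in Arid3c, 3 in Arid5a and in Chd5, and 1 in Smarca1. Among these 5 windows, that of Smarca1 had the fewest CpG dinucleotides, 6 in 250 bases, with an observed over expected ratio of 0.33. The ratio was 0.779 for Arid3b, 0.71 for Arid3c, 0.627 for Arid5a and 0.765 for Chd5. Few CpG dinucleotides were not particular to Smarca1. Smarcd2 and Arid5b, both called higher, had 4 each, with ratios of 0.201 and 0.363. Of the 35 members, 25 had an entry in the RefSeq table. Their windows were rich in G and C, with a median of 63.6% (42 to 80.8%) against 52.4% over all 32851 entries, and a median CpG ratio of 0.798 against 0.374. Those entries were not limited to tested genes, and the part of expression in such differences was not tested. The RefSeq starts used for Smarcd3, Smarcc1 and Smarcd2 lay 22409, 14316 and 5340 bases from the annotated 5′ end of the gene. A GC box was present in 20 of 25 members (80%) and in 32.7% of all windows, a CCAAT box in 7 (28%) and 33.8%, and an ETS site in 3 (12%) and 6.91%. The E-box CACGTG and the CRE TGACGTCA had no match in any of the 25, beside 6.02% and 1.55% of all windows. The NRF1 motif matched in 2 (8%, against 3.74%) and the TATA box TATAAA in 2 (8%, against 12.4%). Members that rose and members that fell both carried GC boxes.

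Smarca1 (ENSMUSG00000031099, chrX:47809368-47892974, protein coding) had the largest fall of any member. It encodes SNF2L, one of the paired ISWI ATPases, which is prominent in neurons. The WT parts had 64.7, 114 and 94.4 normalized counts, and the mutant parts had 2.38 each. Those values stand for 330 reads in WT and 6 in the mutant, a 38.2-fold fall (12.9 to 187), or -4.73 as a log2 fold change (-6.35 to -3.11) with a pseudocount of 1. No mutant part came near the lowest WT part. Over the 635 tested genes of chromosome X the median change was -0.05.

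The other ISWI ATPase, Smarca5 (SNF2H), the widely expressed motor of most ISWI complexes, fell as well but slightly. It had 276, 284 and 266 normalized counts in WT and 215, 243 and 157 in the mutant, a log2 fold change of -0.45 (-0.66 to -0.23), and the groups did not overlap. The limma call on Smarca5 was lost when the variance trend was left out. Leaving out each part in turn, its log2 fold change ran from -0.58 to -0.27, the latter without mutant part 3. Smarca5 has 6 similar processed pseudogenes with values, so its reads may be split, and its sum with them went from 303 to 232 (log2 ratio -0.39). The difference between the log2 fold changes of the ISWI genes was tested on counting error, as 1 of 17 such pairs with Benjamini-Hochberg adjustment over them: Smarca1 minus Smarca5 was -4.28 on the log2 scale (-5.92 to -2.65), past the threshold, and per kilobase of exon its share of the pair went from 29.6% to 1.46%.

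Of 10 genes in a list of ISWI partner subunits, 4 were called higher (40%) and 3 lower (30%), near the 30.3% and 30.9% of all tested genes. Their median change was 0.03 on the log2 scale, and it turned to -0.0074 with upper quartile scaling and to -0.020 without the first mutant part. Cecr2, which pairs with both ATPases, rose most, from a mean of 194 to 268 normalized counts (log2 fold change 0.47, 0.26 to 0.68). Baz2b, a bromodomain partner, fell most, from 777 to 534 (-0.54, -0.67 to -0.41).

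Among the catalytic subunits of BAF, both ATPases fell and kept their order. Smarca4 (BRG1), the main ATPase in progenitors, had 2700.0, 2665 and 2609 normalized counts in WT and 2413, 2149.5 and 2366 in the mutant, a log2 fold change of -0.20 (-0.27 to -0.14). Smarca2 (BRM) had 1080.5, 1129 and 1104 in WT and 857, 886 and 853 in the mutant, a log2 fold change of -0.35 (-0.46 to -0.25). All mutant parts of either gene lay under all WT parts. Smarca2 minus Smarca4 was -0.15 (-0.27 to -0.02), also past the threshold. This call was lost without WT part 2 (-0.13) or 3 (-0.13) and without mutant part 1 (-0.11) or 3 (-0.12). The Smarca2 share of the pair per kilobase went from 15.9% to 14.5%.

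The core subunits split. Smarcb1 (BAF47), a tumour suppressor that anchors the complex to the nucleosome, fell most of the core: 1314, 1323 and 1414 normalized counts in WT and 912, 969 and 1005 in the mutant, a log2 fold change of -0.49 (-0.59 to -0.39). Smarce1 (BAF57), an HMG-box subunit, also fell, from 465, 549 and 492 to 399, 442 and 407, a log2 fold change of -0.27 (-0.42 to -0.11). Neither gene's groups overlapped. Smarce1 shares sequence with 4 copies, 2 of them with values, and its sum with those went from 625 to 521 (log2 ratio -0.26).

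The scaffold genes Smarcc1 (BAF155) and Smarcc2 (BAF170), around which the complex is first assembled, gave no call. Smarcc1 had 1292, 1271 and 1355 normalized counts in WT and 1341, 1293 and 1413 in the mutant, and Smarcc2 had 2742, 2711 and 2702 in WT and 2833, 2709 and 2946 in the mutant. The groups overlapped for both genes. Their log2 fold changes were 0.05 (-0.04 to 0.14) and 0.06 (-0.01 to 0.12). At this scaling, a shift of either gene beyond 0.14 in size lay outside the counting error, which is the only error covered. The difference between them was 0.01 (-0.10 to 0.12), and Smarcc2 held 74.6% and 74.7% of the pair per kilobase.

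The BAF60 subunits did not move together. Smarcd1 (BAF60A), which links the complex to nuclear receptors, had 1653, 1652 and 1619.8 normalized counts in WT and 1403, 1268 and 1269.9 in the mutant (log2 fold change -0.32, -0.41 to -0.24). Smarcd3 (BAF60C), best known in heart and neural progenitors, had 1287, 1248 and 1288 in WT and 1092, 1111 and 963 in the mutant (-0.27, -0.37 to -0.18). Both fell, and their difference was 0.05 (-0.08 to 0.18). Smarcd2 (BAF60B) rose instead, from 148, 151 and 147 to 179, 237 and 241 (0.54, 0.30 to 0.78), with no overlap between the groups. Smarcd2 differed from Smarcd1 by 0.86 (0.61 to 1.12), and its share of that pair per kilobase rose from 9.23% to 15.7%. Smarcd3 shares 48.2% of its exon bases with Chpf2 on the other strand, which went from a mean of 1040.2 to 1137, and the strand setting of the counting is not given in the sources used here.

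Of the 3 ARID subunits of BAF, only Arid1b gave a limma call. Arid1a (BAF250A) had 1625, 1535 and 1533 normalized counts in WT and 1613, 1508 and 1496 in the mutant (log2 fold change -0.02, -0.11 to 0.06), and Arid2 (BAF200), the ARID subunit of the PBAF form, had 953, 918 and 978 in WT and 943, 1034 and 945 in the mutant (0.04, -0.07 to 0.14). The groups overlapped for both. Arid1b (BAF250B), the alternative to Arid1a in canonical BAF, rose from 515, 481 and 501 to 586, 559 and 604 (0.22, 0.09 to 0.36). The rise of Arid1b against Arid1a was 0.25 (0.09 to 0.41), which took its share of the pair per kilobase from 22.5% to 25.7%.

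The remaining BAF subunits, which the name rule did not take, were also read. In the list of 19 partner genes, 17 were tested, and limma called 12 lower (70.6%) and 2 higher (11.8%), beside 30.9% and 30.3% of all tested genes, and the median change was -0.35 on the log2 scale. Dpf3 (BAF45C), a PHD-finger subunit linked to neural differentiation, fell most: 429.5, 458 and 422 normalized counts in WT and 159, 141 and 144 in the mutant (log2 fold change -1.56, -1.78 to -1.33). Phf10 (BAF45A), the progenitor form in the same slot, rose most, from 801, 805 and 792 to 1230.0, 1217 and 1233 (0.62, 0.52 to 0.72). No mutant part of either gene reached the WT range.

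The contrast inside the BAF45 slot was the widest among BAF paralogues. Dpf3 differed from Phf10 by -2.18 (-2.42 to -1.93), and its share of that pair per kilobase went from 38.8% to 12.3%. Dpf1 (BAF45B), a neuronal form, fell from a mean of 178 to 115 and differed from Phf10 by -1.24 (-1.54 to -0.94). Dpf2 (BAF45D), the broadly expressed form, fell from 951 to 789 and differed from Phf10 by -0.88 (-1.03 to -0.73). Ss18 and its neuronal counterpart Ss18l1 both fell, to 339 from 433 and to 191 from 263, with a difference of -0.11 (-0.39 to 0.17). Actl6a (BAF53A), the progenitor form of the actin-related subunit, fell from 301 to 236, while the neuronal Actl6b had a mean of 3.31 in WT and was listed at 0 in all mutant parts, too few reads for a test.

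**Figure D2:**
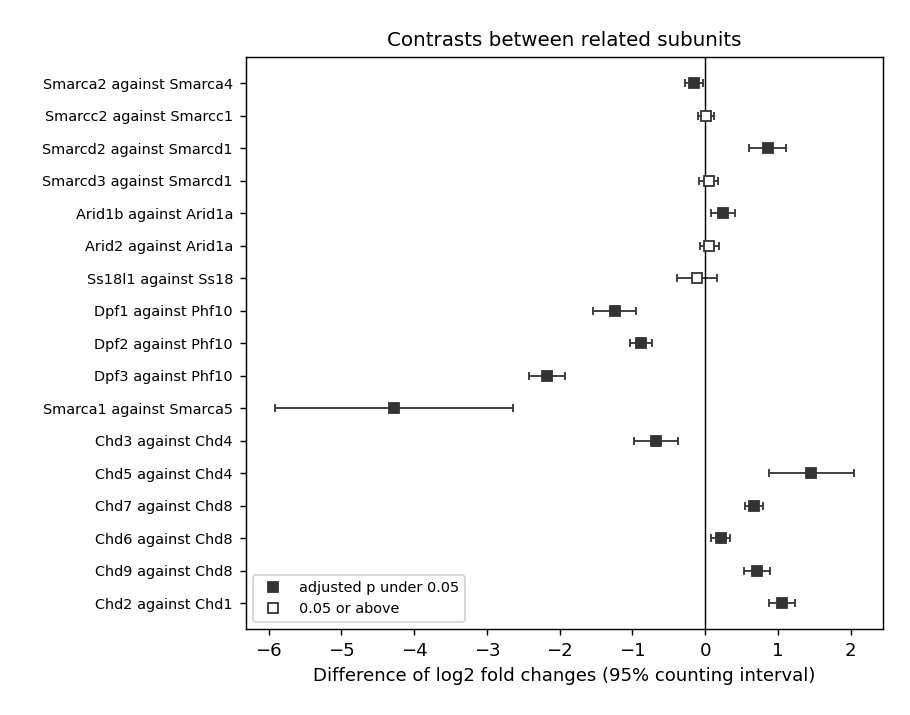
Difference between the log2 fold changes of paired genes that take the same place in a complex or subfamily (x axis, first-named gene minus second), with 95% counting intervals as bars. Filled squares are the 13 of 17 pairs past an adjusted p of 0.05 (Smarca2 against Smarca4 lost its call without some single parts), with Smarca1 against Smarca5 at -4.28 and Dpf3 against Phf10 at -2.18 the lowest and Chd5 against Chd4 at 1.46 the highest.

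Of the NuRD motors, the main one gave no call. Chd4, the most abundant member per kilobase in both genotypes (555 and 546 normalized counts per kilobase), had 4372, 4554 and 4433 normalized counts in WT and 4361, 4375 and 4408 in the mutant. Its log2 fold change was -0.02 (-0.07 to 0.03), and the groups overlapped. That interval covers counting error at this scaling only and does not bound a difference between genotypes. Chd4 was called lower only with upper quartile scaling (-0.06), where the median of all tested genes was also -0.06. Its sign turned when scaled to genes outside chromosome 1 (0.02).

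The minor NuRD motors moved in opposite directions. Chd3 (ENSMUSG00000018474, chr11:69343273-69369406), which replaces CHD4 in some neuronal NuRD, fell from 176, 165 and 162 normalized counts to 106, 92.9 and 111 (log2 fold change -0.70, -0.99 to -0.41). Chd5 (ENSMUSG00000005045, chr4:152338651-152390194), a neural tumour suppressor found mainly in neurons, rose from 15.8, 26.5 and 16.6 to 58.4, 40.5 and 64.3 (1.44, 0.86 to 2.02), on 71 and 137 reads. Neither overlapped between genotypes. Against Chd4, Chd3 differed by -0.68 (-0.97 to -0.38) and Chd5 by 1.46 (0.88 to 2.04). Both remained minor beside Chd4, since the share of Chd3 in its pair per kilobase went from 3.46% to 2.19% and that of Chd5 from 0.367% to 1.03%. Summed neuron markers were 10333 to 10720 normalized counts in WT and 12643 to 12755 in the mutant, a difference set by Map2, the 1 marker called higher. Dcx fell from a mean of 248 to 26.2 and Snap25 from 19.1 to 5.56, Neurod1 had no reads, and the median of the 5 tested markers was -0.36 on the log2 scale. The part of these mixed marker values in the rise of Chd5 was not tested.

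Of 12 other NuRD subunits tested, 7 were called lower (58.3%) and 1 higher (8.33%), beside 30.9% and 30.3% of all tested genes, and the median change was -0.27 on the log2 scale. Mbd3, the methyl-CpG-binding-like subunit that defines one NuRD form, fell most, from a mean of 1607 to 1067 normalized counts (-0.59, -0.68 to -0.50). Mbd2, its methyl-CpG-binding counterpart, was the 1 called higher, from 293 to 341 (0.22, 0.04 to 0.40). In all, 3 of the 12 had a positive log2 fold change.

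Within the CHD6 to CHD9 subfamily, 3 of 4 genes rose and Chd8 gave no call. Chd7 (ENSMUSG00000041235, chr4:8690406-8867659), the gene mutated in CHARGE syndrome, had 1639, 1475 and 1639.7 normalized counts in WT and 2523, 2615 and 2572 in the mutant, a log2 fold change of 0.70 (0.63 to 0.77). Chd9 (ENSMUSG00000056608, chr8:90828352-91054516) had 321, 345 and 325 in WT and 577, 529.9 and 544 in the mutant (0.74, 0.58 to 0.89). Chd6 rose less, from 1094, 1155 and 1152 to 1358, 1333 and 1321 (0.24, 0.15 to 0.33). For these 3 genes every mutant part lay above every WT part.

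Chd8, a frequently mutated gene in autism, had 1125, 1119 and 1127 normalized counts in WT and 1098, 1180.1 and 1153 in the mutant. Its log2 fold change was 0.02 (-0.07 to 0.12), with overlapping groups. The difference from Chd8 was 0.67 (0.55 to 0.79) for Chd7, 0.71 (0.53 to 0.89) for Chd9 and 0.21 (0.08 to 0.35) for Chd6, all past the threshold. Per kilobase, Chd7 went from 62.8% to 72.9% of its pair with Chd8, and Chd9 from 17.3% to 25.6%.

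The 2 genes of the CHD1 subfamily changed in opposite directions. Chd1, which reads methylated H3K4 and works with elongating RNA polymerase, fell from 677, 628 and 604 normalized counts to 467, 486 and 493 (log2 fold change -0.40, -0.54 to -0.26). Chd2 (ENSMUSG00000078671, chr7:73426638-73541830), an epilepsy gene, rose from 699, 659 and 627 to 1100.1, 1021 and 1023 (0.66, 0.55 to 0.78). The groups did not overlap for either gene, and the difference between them was 1.06 (0.88 to 1.24). Per kilobase, Chd1 was above Chd2 in WT and below it in the mutant, with Chd2 at 38.8% and then 57.0% of the pair. In normalized counts not divided by length, Chd2 was already above Chd1 in WT (means of 661 and 636). Chd2 shares 18.4% of its exon bases with the noncoding gene 1810026B05Rik on the same strand, which went the other way, from a mean of 210.1 to 178 (-0.22). The part of this overlap in the order per kilobase was not tested.

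**Figure D3:**
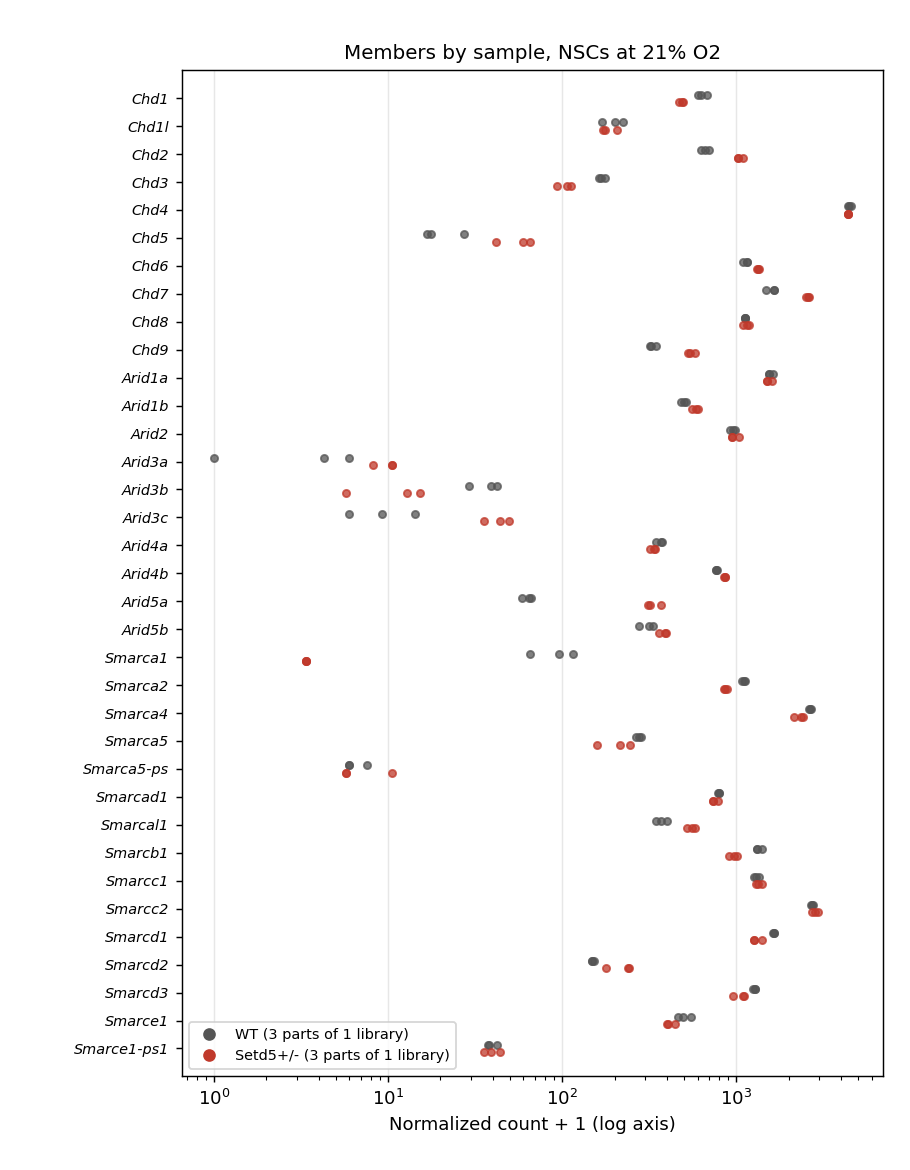
Normalized count plus 1 (x axis, log scale) of all 35 members in the 3 WT parts (grey) and the 3 Setd5+/- parts (red), each genotype being 1 library. Smarca1 is the only member whose mutant parts all sit at 2.38 normalized counts, Arid5a, Arid3c, Chd5, Chd2, Chd7 and Chd9 have red points well to the right of the grey, and Chd4 and Arid1a overlap.

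The ARID genes outside BAF held the largest rises. Arid5a (ENSMUSG00000037447, chr1:36307733-36324029), an RNA-binding regulator that stabilises inflammatory transcripts, had 63.9, 65.4 and 58.0 normalized counts in WT and 321, 367 and 312 in the mutant. That 5.34-fold rise (4.33 to 6.64), or 2.40 on the log2 scale (2.10 to 2.69), was the largest of any tested member, and the groups did not overlap. Arid5a lies on chromosome 1, where the median over 1044 tested genes was 0.53 on the log2 scale and 46.9% were at least 1.5-fold higher. Its own rise was well above that median, and the part of the chromosome-wide shift in it was not tested. Its paralogue Arid5b, a partner of the demethylase PHF2, rose from 333, 275 and 313 to 359, 387 and 395 (0.31, 0.14 to 0.48).

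The ARID3 genes, sequence-specific transcription factors, were all near the lower end of the counts. Arid3c (ENSMUSG00000066224, chr4:41723836-41731142) rose from 4.98, 8.27 and 13.3 normalized counts to 34.6, 48.8 and 42.9, on 32 and 106 reads, a 4.77-fold rise (2.68 to 8.93). Arid3b (ENSMUSG00000004661, chr9:57790353-57836793) fell from 41.5, 38.1 and 28.2 to 14.3, 4.76 and 11.9, on 130 and 26 reads, a 3.48-fold fall (1.90 to 6.87). Neither overlapped between genotypes. Arid3a stayed under the filter with 0, 4.96 and 3.31 in WT and 7.15, 9.53 and 9.53 in the mutant, a ratio of 3.17 (1.01 to 11.6) on 10 and 22 reads, and was not tested. No fold of an ARID3 gene rests on more than 130 reads in a library.

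The ARID4 genes belong to the SIN3A-HDAC complex. Arid4b rose from 772, 768 and 768 normalized counts to 865, 859.8 and 854 (log2 fold change 0.16, 0.05 to 0.27). Arid4a gave no call, with 347, 371 and 375 in WT and 341, 317 and 337 in the mutant (-0.14, -0.31 to 0.04), although its groups did not overlap. Of 5 further genes with an ARID domain, 4 were tested and all 4 were called higher, beside 30.3% of all tested genes, with a median of 0.44. Kdm5b, an H3K4 demethylase on chromosome 1, rose most, from a mean of 1007 to 1625 (0.69, 0.60 to 0.78), and its X-linked paralogue Kdm5c least, from 1623 to 1864 (0.20, 0.12 to 0.28). Kdm5d, the Y-linked copy, was listed at 0 in the WT parts and at 4.77, 2.38 and 7.15 in the mutant parts.

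The last members are single-protein remodelers of genome maintenance. Smarcal1 (ENSMUSG00000039354, chr1:72583251-72633134), which reanneals DNA at stalled replication forks, rose from 399, 344 and 369 normalized counts to 521, 582 and 559 (log2 fold change 0.58, 0.43 to 0.73). It too lies on chromosome 1, and its change was close to the median of 0.53 there. Smarcad1, which acts in end resection and heterochromatin repair, had 782, 796 and 794 in WT and 738, 782 and 737 in the mutant (-0.07, -0.19 to 0.05). Chd1l (ALC1), a remodeler recruited by PARP, had 168, 223 and 200.4 in WT and 175, 206 and 172 in the mutant (-0.09, -0.33 to 0.14). Neither of these gave a call, and both overlapped between genotypes.

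Neither pseudogene gave a call. Smarce1-ps1 had 36.5, 41.4 and 37.3 normalized counts in WT and 42.9, 34.5 and 38.1 in the mutant (log2 fold change 0.00, -0.52 to 0.52). Smarca5-ps, under the filter and untested, had 4.98, 4.96 and 6.63 in WT and 4.77, 9.53 and 4.76 in the mutant. Their reads cannot be told apart from those of their parent genes where the sequences match.

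**Figure D4:**
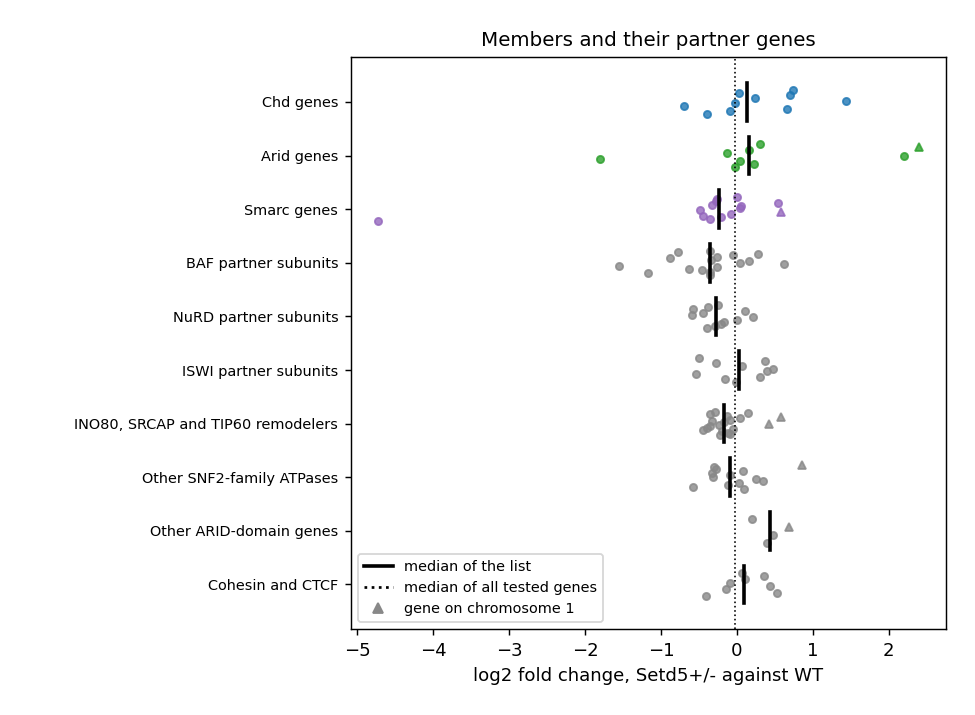
Log2 fold change in Setd5+/- against WT NSCs (x axis) of every tested gene in the 3 name groups and in 7 lists of partner and related genes, with a black bar at each median and a dotted line at the median of all tested genes. The BAF partner median lies at -0.35 and the NuRD partner median at -0.27, while the other ARID-domain genes lie at 0.44, and triangles mark genes of chromosome 1.

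Related machines were compared in the same way. Across all 83 tested partner and related genes, 19 were called higher (22.9%) and 37 lower (44.6%), beside 30.3% and 30.9% of all tested genes, and the median change was -0.15 on the log2 scale. In the INO80, SRCAP and TIP60 list, 2 of 19 tested genes were called higher (10.5%) and 9 lower (47.4%, median -0.16). Values ran from Actr5, an INO80 actin-related subunit, at -0.45 to Uchl5, a deubiquitinase of INO80, at 0.58. The 2 genes called higher, Uchl5 and Ino80d (0.42), both lie on chromosome 1. Among 13 other SNF2-family ATPases, 3 were called higher (23.1%) and 4 lower (30.8%, median -0.09), with the lowest value in Hells, a remodeler needed for DNA methylation, at -0.57 and the highest in Zranb3, a fork-remodeling enzyme on chromosome 1, at 0.85. Of 8 cohesin and CTCF genes 3 were called higher (37.5%) and 2 lower (25%, median 0.09), where Ctcf fell by 0.41 and Smc1a rose by 0.52 on the log2 scale.

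Members differed widely in level. Per kilobase of exon, Chd4, Smarcc2, Smarca4, Smarcd1 and Smarcd3 were the 5 most abundant members in that order in both genotypes, from 555 down to 249 normalized counts per kilobase in WT and from 546 down to 206 in the mutant. The differences of at least 1.5-fold lay below them: the highest level among those 9 genes in WT was that of Chd7, at rank 9 of 35 with 115 normalized counts per kilobase, and it stood at rank 6 with 186 in the mutant. Smarca1 went from 14.9 to 0.389, from rank 28 to the last place. Members were long, with a median exon length of 8.02 kb against 3.77 kb over all tested genes. Across genes, which are not independent replicates, Spearman's rho between exon length and log2 fold change was 0.27 over the 33 members and 0.12 over all tested genes. Within the name groups its sign differed, with 0.61 over the Chd, 0.20 over the Arid and -0.38 over the Smarc genes. These values are given as a description because points share 2 libraries.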

How the data were processed

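Gene expression was read from the deposited results table of mouse NSCs at 21% O2, which holds normalized counts of 6 samples. Per the labels and the study's methods, the authors trimmed reads with Trimmomatic, aligned them to mm10 with Bowtie2 and scaled counts with DESeq2, and the counter, annotation and strand setting are not given in the sources used here. The authors' fold change and p-value columns were not used. In the deposited table the decimal points of the normalized counts (an other unit, since the cells are not plain numbers) had been lost or replaced. They were restored from the whole-read steps of each sample and from the authors' deposited mean, which all 52438 genes with values matched, 1116 of them (1 member) with the mean deciding. One read equals 0.827 to 0.829 normalized counts in WT and 1.19 in the mutant.

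The 16266 genes whose mean over the 6 samples reached 10 normalized counts were fitted with limma 3.58.1 in R 4.3.3 (trend, genotype only) on log2(normalized count + 1), with Benjamini-Hochberg adjustment over all of them and a threshold of 0.05. Fold changes on this scale understate the change of low genes. Counting intervals (95%) on the log2 scale used the summed reads of each library and cover counting error only. Their variance over mean, taken from the spread of the parts, was 1.97 in WT and 1.94 in the mutant. Paralogue contrasts used a 2-sided z test on this log2 counting error. Intervals (95%) given with a plain fold or ratio were instead exact binomial intervals on read pairs, with 2 reads taken as 1 pair. Reads of 2 such libraries were simulated as Poisson read pairs, with few changed genes and no spread between cultures. There, 150 of 195 changed genes were recovered with 0 in the wrong direction, and 8 unchanged genes were called among 16311 tested. This setting cannot speak to false calls between genotypes. On values simulated in the format assumed for the deposited table, the restoration was correct for 100%. Exon lengths, positions and overlaps came from GENCODE M21, look-alike genes from minimap2 2.31 (at least 100 bases at 95% identity), and promoters from RefSeq.

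The members and all lists were chosen with earlier results of these data known, and the design followed the study's 2-group comparison. Named genes were every member, Setd5, every gene of the paralogue pairs, and the tested gene with the largest rise and fall in each partner list. The cell type markers, Kdm5d, Ino80d and genes overlapping a member were named beside them after their values were seen.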

Additional observations from a re-analysis of the deposited data

How the results depend on the processing

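No fit had a replicate of either genotype, so none of these alternatives speaks to the spread between cultures, and low counts limit Arid3b, Arid3c, Chd5 and Smarca1. Of the tested members, 26 kept their call and sign in all alternatives run. The call changed for 3: Chd4 was called lower with upper quartile scaling (-0.061), Smarcc2 was called higher when scaled to genes outside chromosome 1 (0.10) and without 1 mutant part (0.088), and Smarca5 lost its call without the limma trend (-0.45 in both). Members that gave no call changed sign. When scaled to genes outside chromosome 1, Arid1a was 0.019 and Chd4 0.020, and with upper quartile scaling Arid2 was -0.0032, Chd8 -0.014 and Smarce1-ps1 -0.035. Leaving out each part in turn, Arid1a ran from -0.058 to 0.0035, Arid2 from -0.0087 to 0.058 and Smarce1-ps1 from -0.077 to 0.076. The median log2 fold change of the members ran from -0.020 to 0.011 over the same fits. It was 0.024 with no filter on low values, 0.044 when scaled to genes outside chromosome 1, -0.035 with upper quartile scaling and, in alternatives chosen after seeing the data, 0.030 without the members that share reads and -0.023 without the members on chromosome 1. With a filter at a mean of 50, 1 member was at least 1.5-fold lower. Asking for an adjusted p and 1.5-fold together left 6 members higher and 3 lower, and 3 partner genes higher and 6 lower. The shares of all tested genes that pass these stricter rules were not counted. Leaving out the members on chromosome 1 left 10 called higher (32.3%) and 11 lower (35.5%). Of all tested genes outside chromosome 1, 28.1% were called higher and 32.4% lower. The cause of these shifts was not tested, apart from the smaller number of genes that the stricter rules admit.

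Sample numbers shared by the genotypes did not pair the samples: deviations of same-numbered samples correlated at 0.0049, 0.0015 and -0.0071. With the replicate block, limma called 12 members higher and 11 lower, 20 partner genes higher and 37 lower, and gave Setd5 a log2 fold change of -0.37. The share of all tested genes called with the block was not counted. Paralogue contrasts past the threshold numbered 13, and 12 without WT part 2 or 3 or mutant part 1 or 3, the lost call each time being Smarca2 against Smarca4. They were not run under the other filters.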
